A study of Arabidopsis thaliana with 4 samples.

Results

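The WRKY transcription factor family of Arabidopsis thaliana was described here through 50 of its genes, chosen by locus identifier among the 32678 loci of the deposited table. TTG2 and the other family genes outside that choice were not analysed here. Messenger RNA levels were compared between 35S:TEM1 plants, which overexpress the transcription factor gene TEM1 from the 35S promoter of cauliflower mosaic virus, and wild-type (WT) plants. Each genotype had 2 samples, 4 in all. Every sample was RNA of 20 pooled whole plants, 10 days old, grown in LD at 22 °C and harvested at ZT18. The 35S promoter is active in most plant tissues, and the labels do not say how many transgenic lines were used or whether the pools were grown apart, so the p-values reflect how much these pools vary, which may be technical. TEM1 (AT1G25560) itself had 784 and 827 RPKM (reads per kilobase of gene, scaled to library depth) in the 35S:TEM1 samples, against 16.3 and 30.3 RPKM in the WT samples.

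WRKY factors are plant DNA-binding proteins named after a conserved heptapeptide, which is followed by a zinc finger and contacts the W-box, a promoter element with the core TTGAC. They are sorted into group I, with a pair of WRKY domains, groups IIa to IIe, with a single domain, and group III, whose zinc finger has another arrangement of cysteine and histidine. Many are induced within minutes to hours by pathogens, wounding or other stress and are phosphorylated by mitogen-activated protein kinases, while others act in seeds, trichomes, roots, stems, senescence or nutrient uptake.

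The family label was checked on the coding sequences of the RefSeq annotation (assembly TAIR10.1). All 50 members encoded the heptapeptide, all 9 listed group I members encoded a pair of them, and all 8 listed group III members encoded the zinc finger spacing of that group, which 0 of the 42 other members did. In 2 members, WRKY50 and WRKY51, a lysine codon stood at the place of the glutamine codon of the other members. The stretch is shown for WRKY14 and WRKY70, the members that passed with the largest rise and the largest fall, and for WRKY50 as the departing form, 5′ to 3′ on the coding strand, with that codon in capitals.
WRKY14 (chr1:10869925-10869945, + strand, exon): tggcgtaaatacggtCAAaaa
WRKY70 (chr3:20909760-20909780, - strand, exon): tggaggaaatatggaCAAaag
WRKY50 (chr5:9147579-9147599, - strand, exon): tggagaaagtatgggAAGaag

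Of the 50 members, 36 had a mean of at least 1 RPKM over the 4 samples and were tested, and 14 lay under that limit. In 35S:TEM1 plants 14 tested members rose, 2 fell (WRKY23 and WRKY70) and 20 did not pass the test (limma on log2(RPKM + 1), Benjamini-Hochberg adjusted p under 0.05 over all 17746 tested genes). The share higher was 38.9% of the tested members, beside 18.3% of all tested genes, and the share lower was 5.56%, beside 7.37%. The median log2 fold change (35S:TEM1 minus WT on the log2(RPKM + 1) scale, as for every fold change below) was 0.32 over the tested members and 0.12 over all tested genes. WRKY14, WRKY28 and WRKY41 reached a mean of 1 RPKM in 35S:TEM1 and not in WT, so their testing was not independent of a difference, and these counts describe the members and are no test of the family. With every sample set to the same median, 11 members were higher and 2 lower, beside 10.9% and 13.7% of all tested genes. That scaling moved the median of all tested genes to -0.03 and that of the members to 0.22, and the higher share of all calls was 44.3% with it and 71.3% without it. Summed over the 50 members, the level was 293 and 313 RPKM in 35S:TEM1, against 221 and 256 RPKM in WT.

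**Figure D1:**
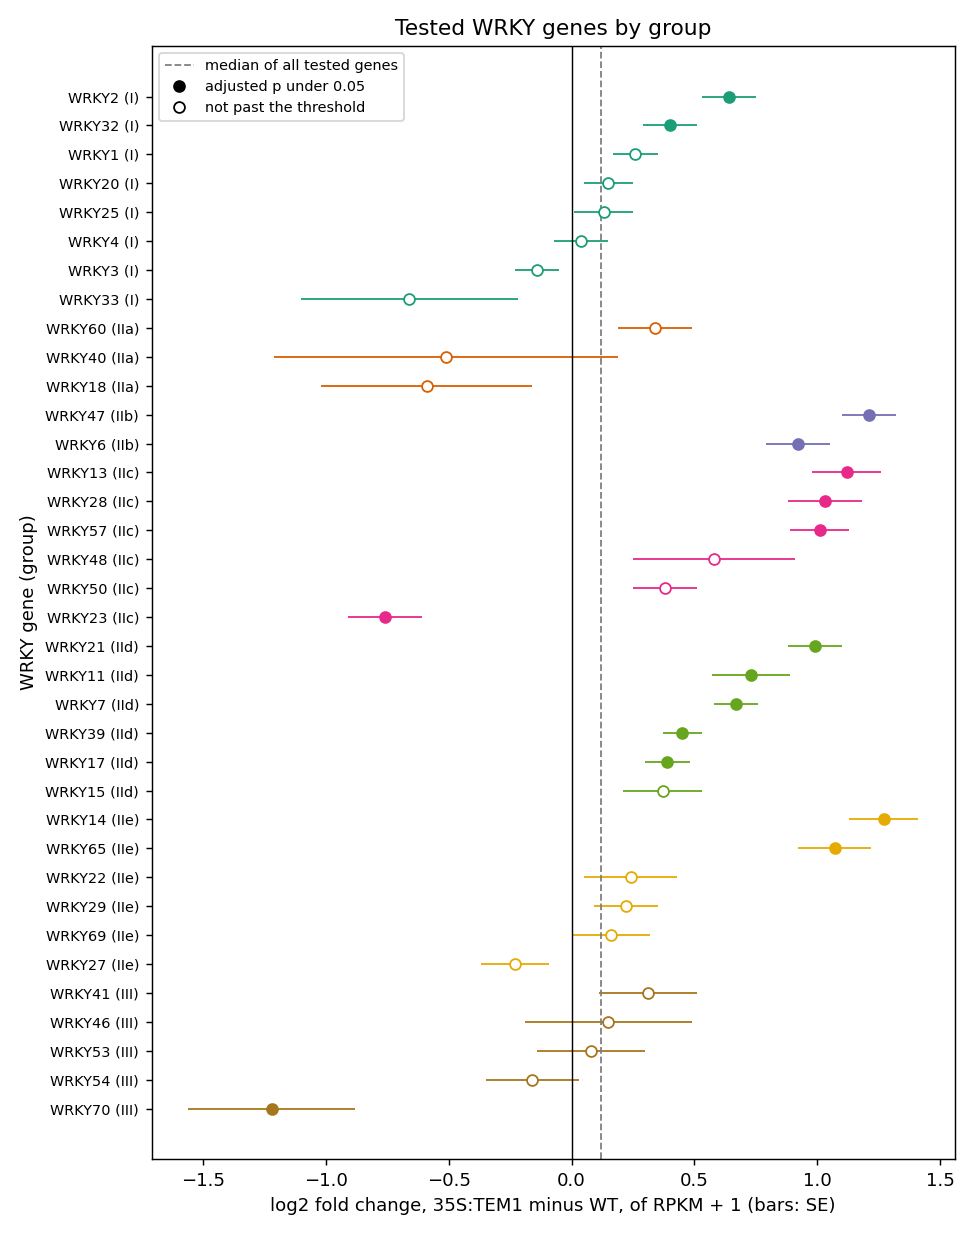
Log2 fold change (35S:TEM1 minus WT, of RPKM + 1) of the 36 tested WRKY genes, ordered by group, with standard errors from limma. Filled points passed an adjusted p of 0.05, the dashed line is the median of all tested genes at 0.12, and values ran from -1.22 (WRKY70) to 1.27 (WRKY14).

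The risers were spread over groups I, IIb, IIc, IId and IIe. In group IIb both tested members rose, in group IIc 3 of 6, in group IId 5 of 6, in group IIe 2 of 6 and in group I 2 of 8, and 0 of the 3 tested group IIa and 0 of the 5 tested group III members did. A difference between groups was not tested. In the summed level per sample, group IIb had 19.7 and 17.9 RPKM in 35S:TEM1 against 8.57 and 7.78 RPKM in WT, and group IId had 116 and 123 RPKM in 35S:TEM1 against 77.9 and 74.4 RPKM in WT. The samples of the genotypes did not overlap in either sum. The same held for group IIc (24.4 and 24.9 RPKM in 35S:TEM1, 13.7 and 16 RPKM in WT). It also held for group IIe (24.8 and 25 RPKM in 35S:TEM1, 15.6 and 18.1 RPKM in WT). The sums of groups I, IIa and III overlapped. Of all tested genes taken singly, 47.4% had both 35S:TEM1 samples above both WT samples.

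WRKY47 (AT4G01720) of group IIb had the lowest adjusted p of the family. Its level was 10.5 and 9.32 RPKM in 35S:TEM1, against 3.86 and 3.55 RPKM in WT, a log2 fold change of 1.21 ± 0.11 (SE, n = 2 each, limma adjusted p = 0.00127). WRKY6 (AT1G62300), a group IIb regulator of senescence and a known repressor of the phosphate exporter gene PHO1, had 7.32 and 6.74 RPKM in 35S:TEM1 and 3.6 and 2.91 RPKM in WT (0.92 ± 0.13, limma adjusted p = 0.00462). For both genes each 35S:TEM1 sample lay well above each WT sample. The 3 remaining IIb members lay under the limit. Of these WRKY42, another known repressor of PHO1, had 0.312 and 0.544 RPKM in 35S:TEM1 and 0.559 and 0.47 RPKM in WT, which overlapped.

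Group IIe held the largest log2 fold change of the tested members, in WRKY14 (AT1G30650), with 3.4 and 3.66 RPKM in 35S:TEM1 and 0.751 and 1.01 RPKM in WT (1.27 ± 0.14, limma adjusted p = 0.00234). Its means differed 4-fold, and it ranked 352 from the top among the 17746 tested genes. WRKY65 (AT1G29280) of the same group had 7.07 and 6.35 RPKM in 35S:TEM1 and 3.12 and 2.27 RPKM in WT (1.07 ± 0.15, limma adjusted p = 0.00462). Both genes were clear of WT in each sample. WRKY22 and WRKY29, which act after the kinase cascade triggered by bacterial flagellin, belong to this group as well. They had log2 fold changes of 0.24 and 0.22 and did not pass, nor did WRKY69 (0.16) and WRKY27 (-0.23).

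In group IIc the 3 risers were WRKY13, WRKY28 and WRKY57. WRKY13 (AT4G39410) promotes lignified cell walls of the stem and also acts in flowering control. It had 3.41 and 3.32 RPKM in 35S:TEM1 and 0.877 and 1.15 RPKM in WT (1.12 ± 0.14, limma adjusted p = 0.00326). WRKY12, its counterpart in flowering control, lay under the limit with 0.228 and 0.413 RPKM in 35S:TEM1 and 0.453 and 0.713 RPKM in WT. WRKY28 (AT4G18170), an activator of the salicylic acid synthesis gene ICS1, had 2.55 and 2.08 RPKM in 35S:TEM1 and 0.635 and 0.6 RPKM in WT (1.03 ± 0.15, limma adjusted p = 0.00552). Its WT samples were the lowest of any member that passed, and both 35S:TEM1 samples were more than 3 times as high. WRKY57 (AT1G69310), which counteracts jasmonate-induced leaf senescence and raises drought tolerance when overexpressed, had 7.91 and 8.92 RPKM in 35S:TEM1 and 3.95 and 3.39 RPKM in WT (1.01 ± 0.12, limma adjusted p = 0.00284).

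Group IId factors bind calmodulin and include some of the most abundant members. WRKY21 (AT2G30590) had the highest mean level of the 50 genes, with 27.5 and 32.2 RPKM in 35S:TEM1 and 15 and 14.1 RPKM in WT (0.99 ± 0.11, limma adjusted p = 0.00215). WRKY7, WRKY11 and WRKY17 are known as negative regulators of resistance to bacteria. WRKY7 (AT4G24240) had 13.3 and 13.5 RPKM in 35S:TEM1 and 7.77 and 8.28 RPKM in WT (0.67 ± 0.09, limma adjusted p = 0.00464). WRKY11 (AT4G31550) had 17.6 and 23.7 RPKM in 35S:TEM1 and 10.8 and 13.2 RPKM in WT (0.73 ± 0.16, limma adjusted p = 0.0229), and WRKY17 (AT2G24570) had 13.2 and 13.3 RPKM in 35S:TEM1 and 10 and 9.76 RPKM in WT (0.39 ± 0.09, limma adjusted p = 0.0237). The levels of all 3 were higher in each 35S:TEM1 sample than in each WT sample. WRKY39 (AT3G04670), a gene of the heat response, had 21.1 and 20.1 RPKM in 35S:TEM1 and 14.8 and 14.7 RPKM in WT (0.45 ± 0.08, limma adjusted p = 0.0128). WRKY15, which lowers salt and oxidative stress tolerance when overexpressed, had 23.8 and 20.3 RPKM in 35S:TEM1 and 19.4 and 14.3 RPKM in WT and did not pass (0.37 ± 0.16, limma adjusted p = 0.128).

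The calls of WRKY11, WRKY17 and WRKY39 did not hold in every fit that left out 1 sample. WRKY11 did not pass without 35S:TEM1 replicate 2 (0.52) or WT replicate 1 (0.6), nor with equal sample medians (0.57) or quantile normalization (0.59). WRKY17 did not pass without either 35S:TEM1 sample (0.39 and 0.38) or WT replicate 2 (0.37), nor under those scalings (0.24 each). WRKY39 did not pass without either 35S:TEM1 sample (0.42 and 0.48). WRKY15 passed without WT replicate 1 (0.58).

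In group I, WRKY2 and WRKY32 rose. WRKY2 (AT5G56270), which acts in zygote polarity and in abscisic acid responses of germinating seeds, had 8.48 and 9.61 RPKM in 35S:TEM1 and 5.16 and 5.74 RPKM in WT (0.64 ± 0.11, limma adjusted p = 0.0106). WRKY2 did not pass without 35S:TEM1 replicate 2 (0.56). WRKY32 (AT4G30935), a promoter of photomorphogenesis, had 11.8 and 12.2 RPKM in 35S:TEM1 and 8.09 and 9.69 RPKM in WT (0.4 ± 0.11, limma adjusted p = 0.046). This call was lost without either 35S:TEM1 sample (0.42 and 0.38), without WT replicate 1 (0.28), with both other scalings (0.25 each) and without the variance trend. WRKY3 and WRKY20 were among the 5 most abundant members and did not pass. WRKY3, needed for resistance to necrotrophic fungi, had 16.6 and 17.8 RPKM in 35S:TEM1 and 19.8 and 18.3 RPKM in WT (-0.14 ± 0.09), and WRKY20 had 18.9 and 17 RPKM in 35S:TEM1 and 16.7 and 15.4 RPKM in WT (0.15 ± 0.10, and 0 with equal sample medians). The remaining tested members of the group, WRKY1 (0.26), WRKY25 (0.13) and WRKY4 (0.04), did not pass either.

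**Figure D2:**
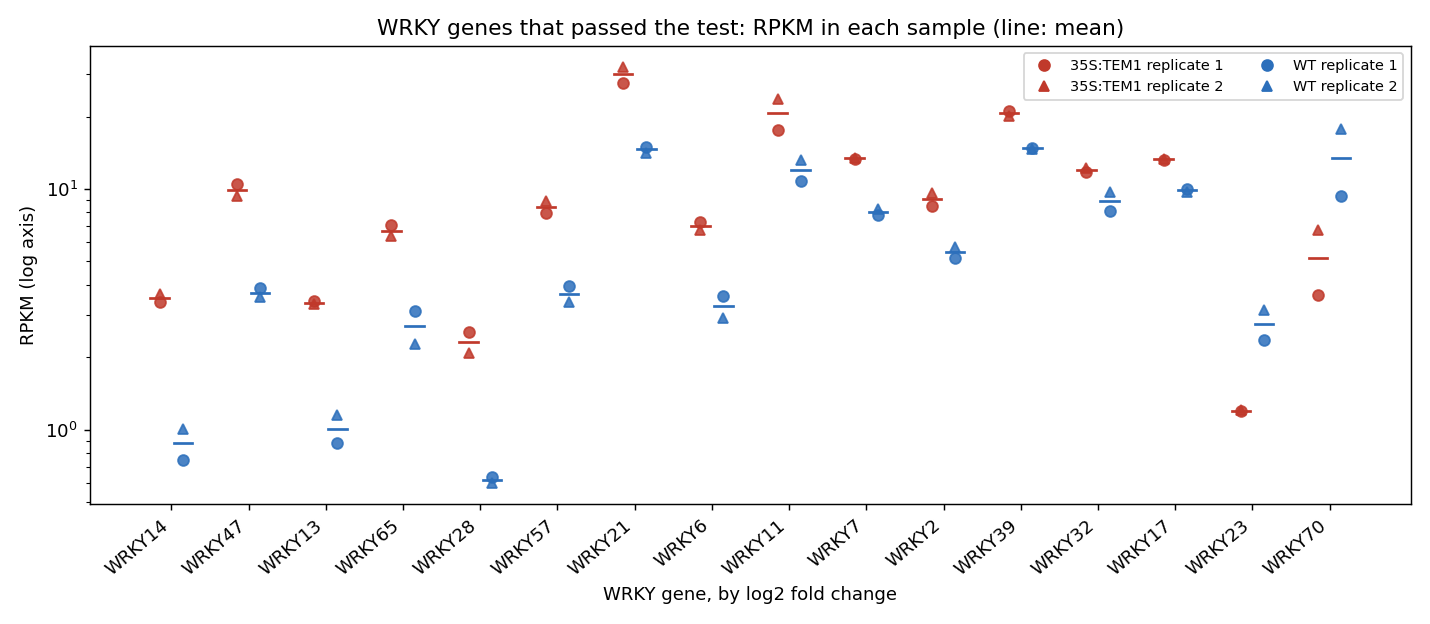
RPKM (log axis) in each sample of the 16 WRKY genes that passed the test, ordered by log2 fold change, with 35S:TEM1 left of WT, circles for replicate 1, triangles for replicate 2 and lines for means. WRKY70 has the widest gap between samples of a genotype, with 3.61 and 6.77 RPKM in 35S:TEM1 and 9.35 and 17.7 RPKM in WT.

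The 2 falls were in group IIc, beside its 3 risers, and in group III. WRKY23 (AT2G47260) of group IIc, an auxin-induced gene of root and embryo development, had 1.19 and 1.21 RPKM in 35S:TEM1 and 2.35 and 3.13 RPKM in WT (-0.76 ± 0.15, limma adjusted p = 0.0167). The call was lost without either 35S:TEM1 sample (-0.75 and -0.77) and without WT replicate 2 (-0.61). WRKY70 (AT3G56400) of group III, a regulator at the balance of salicylic acid and jasmonate signalling and a repressor of senescence, had 3.61 and 6.77 RPKM in 35S:TEM1 and 9.35 and 17.7 RPKM in WT (-1.22 ± 0.34, limma adjusted p = 0.0443). The genotypes did not overlap, but the samples within each differed nearly 2-fold. WRKY54, its closest relative, overlapped between genotypes with 1.26 and 1.72 RPKM in 35S:TEM1 and 1.43 and 2.17 RPKM in WT (-0.16 ± 0.19, limma adjusted p = 0.554). The WRKY70 call was lost without 35S:TEM1 replicate 1 (-0.84), without WT replicate 2 (-0.79), without the variance trend and with robust variance.

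A further 6 members, picked after their values were seen, differed widely between the samples of a genotype. WRKY40, WRKY18 and WRKY33 are rapidly induced by elicitors and wounding. WRKY40 of group IIa had 0.539 and 2.44 RPKM in 35S:TEM1 and 0.578 and 5.82 RPKM in WT (-0.51 ± 0.70, limma adjusted p = 0.617). WRKY18, its partner in repressing defence genes, had 3.58 and 6.59 RPKM in 35S:TEM1 and 4.7 and 12.8 RPKM in WT (-0.59 ± 0.43, limma adjusted p = 0.345). In both genes replicate 2 was the higher sample of each genotype, and the genotypes overlapped. WRKY33, which activates camalexin synthesis against fungi, had 5.37 and 7.51 RPKM in 35S:TEM1 and 6.05 and 18.1 RPKM in WT (-0.66 ± 0.44, limma adjusted p = 0.303). WRKY48, a negative regulator of resistance to bacteria, had 2.32 and 4.53 RPKM in 35S:TEM1 and 1.15 and 2.8 RPKM in WT (0.58 ± 0.33, limma adjusted p = 0.24). WRKY46 of group III had 1.42 and 3.35 RPKM in 35S:TEM1 and 1.29 and 2.75 RPKM in WT (0.15 ± 0.34, limma adjusted p = 0.771), and the senescence activator WRKY53 had 1.37 and 1.57 RPKM in 35S:TEM1 and 0.89 and 1.89 RPKM in WT (0.08 ± 0.22, limma adjusted p = 0.814). The fold changes of WRKY33, WRKY18 and WRKY40 depended on which WT sample was left out. WRKY33 had a log2 fold change of -1.38 without WT replicate 1 and 0.06 without WT replicate 2, WRKY18 of -1.23 and 0.05, and WRKY40 of -1.57 and 0.54, and all 3 passed the test without WT replicate 1.

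The same samples were high in a list of 15 genes known to respond within minutes to touch or wounding. Its summed level was 83.2 and 360 RPKM in 35S:TEM1 and 139 and 394 RPKM in WT, with replicate 2 above replicate 1 in each genotype. All 13 tested genes of the list were higher in replicate 2 of both genotypes, as were 18 of the 36 tested WRKY members, beside 26.1% of all tested genes. Among the members these included 5 of 5 in group III and 3 of 3 in group IIa, against 0 of 2 in group IIb. Between the samples of a genotype the touch gene TCH4 had 6.91 and 95 RPKM in 35S:TEM1 and 12.4 and 67.3 RPKM in WT. The median absolute difference between samples was 0.15 (35S:TEM1) and 0.22 (WT) on the log2 scale over the tested members, and 0.10 and 0.13 over all tested genes. What set these samples apart was not tested.

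**Figure D3:**
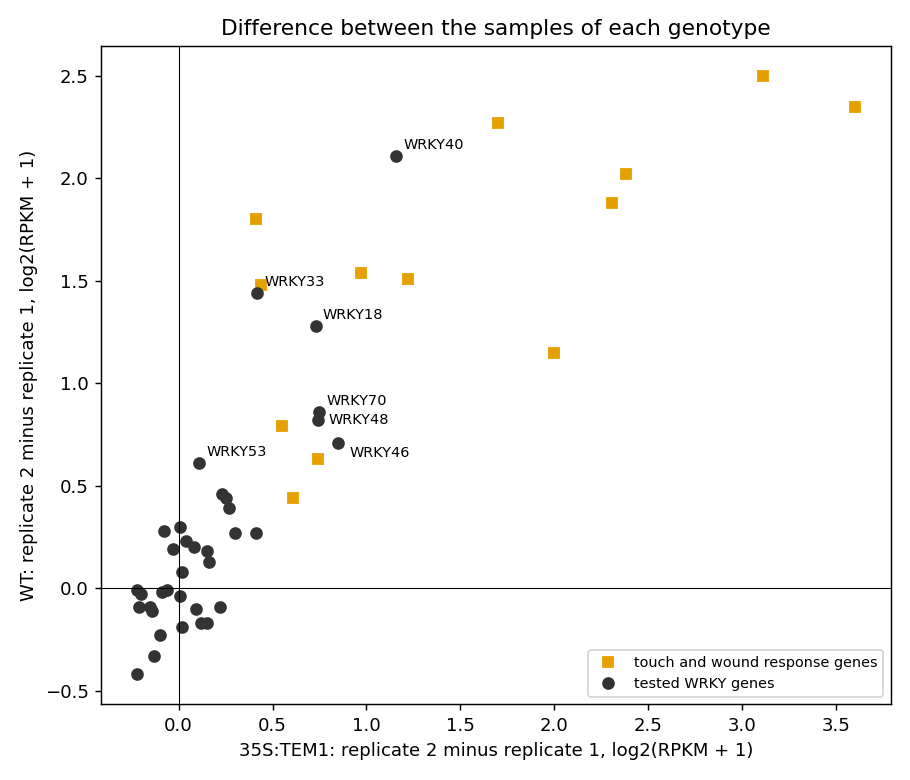
Replicate 2 minus replicate 1 on the log2(RPKM + 1) scale, within 35S:TEM1 (horizontal) and within WT (vertical), for the 36 tested WRKY genes (circles) and the 13 tested touch and wound response genes (squares). WRKY40, at 1.16 and 2.11, lies with the touch and wound response genes. WRKY18 (0.73 and 1.28), WRKY33 (0.42 and 1.44), WRKY46 (0.85 and 0.71), WRKY48 (0.74 and 0.82) and WRKY70 (0.75 and 0.86) also lie within their range. Most of the other WRKY genes lie nearer the origin.

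None of the other tested members passed. WRKY60, the third group IIa factor, had 1.6 and 1.87 RPKM in 35S:TEM1 and 1.03 and 1.3 RPKM in WT (0.34 ± 0.15, limma adjusted p = 0.144). WRKY50, which with WRKY51 mediates repression of jasmonate signalling by salicylic acid, had 3.42 and 2.82 RPKM in 35S:TEM1 and 2.27 and 2.06 RPKM in WT (0.38 ± 0.13, limma adjusted p = 0.0864). Neither passed, although in both genes the 35S:TEM1 samples lay above the WT samples. WRKY41, an activator of seed dormancy, had 1.17 and 1.59 RPKM in 35S:TEM1 and 0.642 and 1.23 RPKM in WT (0.31 ± 0.20, limma adjusted p = 0.298), with an overlap. Over all tested members both 35S:TEM1 samples lay above both WT samples in 20 (55.6%, beside 47.4% of all tested genes) and below them in 4 (11.1%, beside 20.7%).

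The 14 members under the limit were WRKY8, WRKY12, WRKY26, WRKY30, WRKY31, WRKY35, WRKY38, WRKY42, WRKY43, WRKY45, WRKY51, WRKY55, WRKY72 and WRKY75. In 5 of them both 35S:TEM1 samples lay above both WT samples, in 2 (WRKY8 and WRKY12) below, and 7 overlapped. Of the 6569 loci under the limit with a value above 0 in any sample, 31.6% had both 35S:TEM1 samples above and 11.2% had both below. WRKY30, a gene of the oxidative stress response, had 0.577 and 0.586 RPKM in 35S:TEM1 and 0.0765 and 0.0643 RPKM in WT. From its exon length and the depth these correspond to about 15 and 21 reads in 35S:TEM1 and to 3 and 2 reads in WT, a ratio per library read of 8.19 (exact Poisson 95% interval 3.2 to 26.7, for counting error only). With no filter on low values its log2 fold change was 0.56, with a limma adjusted p of 0.0474 over all 32678 loci. WRKY75, a senescence and phosphate starvation factor, had 1.24 and 0.333 RPKM in 35S:TEM1 and 0.261 RPKM in WT replicate 1, and was listed at 0 in WT replicate 2. The 35S:TEM1 samples of WRKY75 thus differed more than 3-fold. WRKY72, WRKY35 and WRKY31 were the other 3 members with higher 35S:TEM1 samples, at estimated read ratios of 2.15, 1.77 and 1.96. Ratios were computed only for members picked because both 35S:TEM1 samples lay above both WT samples. Values above 1 were thus fixed by that choice, and the interval of WRKY30 is no test. For WRKY8 and WRKY12, which lay below, no ratio was computed. WRKY51 was listed at 0 in all samples but 35S:TEM1 replicate 1 (0.141 RPKM). WRKY45, an activator of phosphate uptake, had 0.867 and 0.63 RPKM in 35S:TEM1 and 0.647 and 1.04 RPKM in WT.

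All 16 calls of the family were lost when the loci listed at 0 in every sample (8363 of 32678) and the other low loci all entered the fit, which had 0.7 prior degrees of freedom and called 1.06% of all loci. With no filter but without the loci at 0, where the prior degrees of freedom were 2.97 and 17.2% of 24315 loci were called, 14 of the 16 held, and WRKY32 (limma adjusted p = 0.076) and WRKY70 (limma adjusted p = 0.0884) did not.

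Some markers of tissues differed between the genotypes in these samples. Of 15 root cell markers all 9 tested ones rose, from 0.61 to 1.42. Among these PRP3, CASP2, EXPA7 and WOX5 reached a mean of 1 RPKM in 35S:TEM1 and not in WT. Their testing was thus not independent of a difference, and the count is a description only. The summed level of the 15 was 428 and 426 RPKM in 35S:TEM1 and 299 and 243 RPKM in WT. Most of these sums came from PYK10 alone, with 365 and 355 RPKM in 35S:TEM1 and 267 and 208 RPKM in WT. RHD6 was at 0 in WT replicate 1 and CASP5 at 0 in WT replicate 2. Of 9 leaf epidermis and guard cell markers 4 fell, 0 rose and 5 did not pass. The summed level of the 9 was 457 and 473 RPKM in 35S:TEM1 and 705 and 597 RPKM in WT, with none at 0. For comparison, 18.3% of all tested genes rose and 7.37% fell. With equal sample medians these shares were 10.9% and 13.7%, and no marker counts are given for that scaling. A difference of either marker list from all tested genes was not tested. The part of either list in the changes of WRKY genes was not tested. In whole plants a changed number of cells of a type and a changed RNA level per cell cannot be told apart. Of 8 leaf senescence genes 5 were tested, of which NYE1 (0.47) and SEN4 (0.85) rose and 0 fell. SAG13 (0.74), ORE1 (0.04) and SEN1 (-1.44) did not pass. The levels of SEN1 were 2.55 and 1.93 RPKM in 35S:TEM1 and 17.7 and 3.12 RPKM in WT. SAG12, a late senescence marker, was listed at 0 in all 4 samples.

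Genes that act with WRKY factors were taken from a list of partners. It held 12 kinases of the mitogen-activated cascades and VQ proteins, which bind WRKY domains. All were tested, and 1 rose, 2 fell and 9 did not pass (median -0.09), beside 18.3% higher and 7.37% lower of all tested genes (median 0.12). The falls were in SIB1, a VQ partner of WRKY33, with 1.34 and 1.01 RPKM in 35S:TEM1 and 3.02 and 3.76 RPKM in WT (-1.01 ± 0.15, limma adjusted p = 0.00677), and in MKS1, the VQ protein that links the kinase MPK4 to WRKY33, with 4.04 and 3.12 RPKM in 35S:TEM1 and 6.57 and 6.21 RPKM in WT (-0.7 ± 0.13, limma adjusted p = 0.0139). JAV1, a VQ repressor of jasmonate defence, had 2.55 and 2.13 RPKM in 35S:TEM1 and 0.961 and 1.25 RPKM in WT (0.67 ± 0.15, limma adjusted p = 0.0234). The calls of MKS1 and JAV1 were lost without 35S:TEM1 replicate 2 (-0.55 and 0.76), and that of JAV1 also without 35S:TEM1 replicate 1 (0.58) or WT replicate 1 (0.57) and with quantile normalization (0.48). The kinases MPK3 (-0.38), MPK4 (-0.10) and MPK6 (-0.08) did not pass.

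A further list held 23 genes known from earlier work as targets of one or more WRKY factors or as genes of their pathways. Of these 14 were tested, and 5 rose, 1 fell and 8 did not pass (median 0.32). Of all tested genes 18.3% were higher and 7.37% lower (median 0.12), and a difference of the list from them was not tested. ABI5, CYP71A13, CYP71A12 and PAD3 reached a mean of 1 RPKM in 35S:TEM1 only, and ORA59 in WT only. Their testing was thus not independent of a difference, and the counts describe the list only. PHO1, the exporter that loads phosphate into the xylem, had 23.6 and 23.2 RPKM in 35S:TEM1 and 6.15 and 6.46 RPKM in WT (1.74 ± 0.09, limma adjusted p = 0.000255). Its 35S:TEM1 samples nearly matched each other, as did its WT samples. PHT1;1, a phosphate uptake carrier, had 5.72 and 5.81 RPKM in 35S:TEM1 and 2.43 and 1.93 RPKM in WT (1.09 ± 0.13, limma adjusted p = 0.00278), but its exons match another locus at 98.1% identity over 1176 bases, so its level is uncertain. ABI5, a transcription factor of abscisic acid signalling, had 3.8 and 3.91 RPKM in 35S:TEM1 and 0.631 and 0.723 RPKM in WT (1.53 ± 0.13, limma adjusted p = 0.00102). CYP71A13 of camalexin synthesis had 2.73 and 2.18 RPKM in 35S:TEM1 and 0.644 and 0.431 RPKM in WT (1.17 ± 0.16). PAD3 (0.22) and CYP71A12 (0.6) of the same list did not pass, and CYP71A12 differed between the 35S:TEM1 samples (2.35 and 0.683 RPKM). The borate exporter gene BOR1 rose by 0.51 ± 0.09, although BOR1 did not pass when 35S:TEM1 replicate 1 was left out (0.47). ORA59, a factor of jasmonate and ethylene defence, had 0.373 and 0.193 RPKM in 35S:TEM1 and 1.62 and 2.67 RPKM in WT (-1.28 ± 0.21, limma adjusted p = 0.00824). PR1, the marker of salicylic acid defence, had 11 and 0.142 RPKM in 35S:TEM1 and 1.08 and 4.47 RPKM in WT, with no common level within either genotype (0.13 ± 1.05, limma adjusted p = 0.937). ICS1, the target of WRKY28, had 5.37 and 4.68 RPKM in 35S:TEM1 and 3.67 and 3.87 RPKM in WT and did not pass (0.34 ± 0.12, limma adjusted p = 0.0806).

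**Figure D4:**
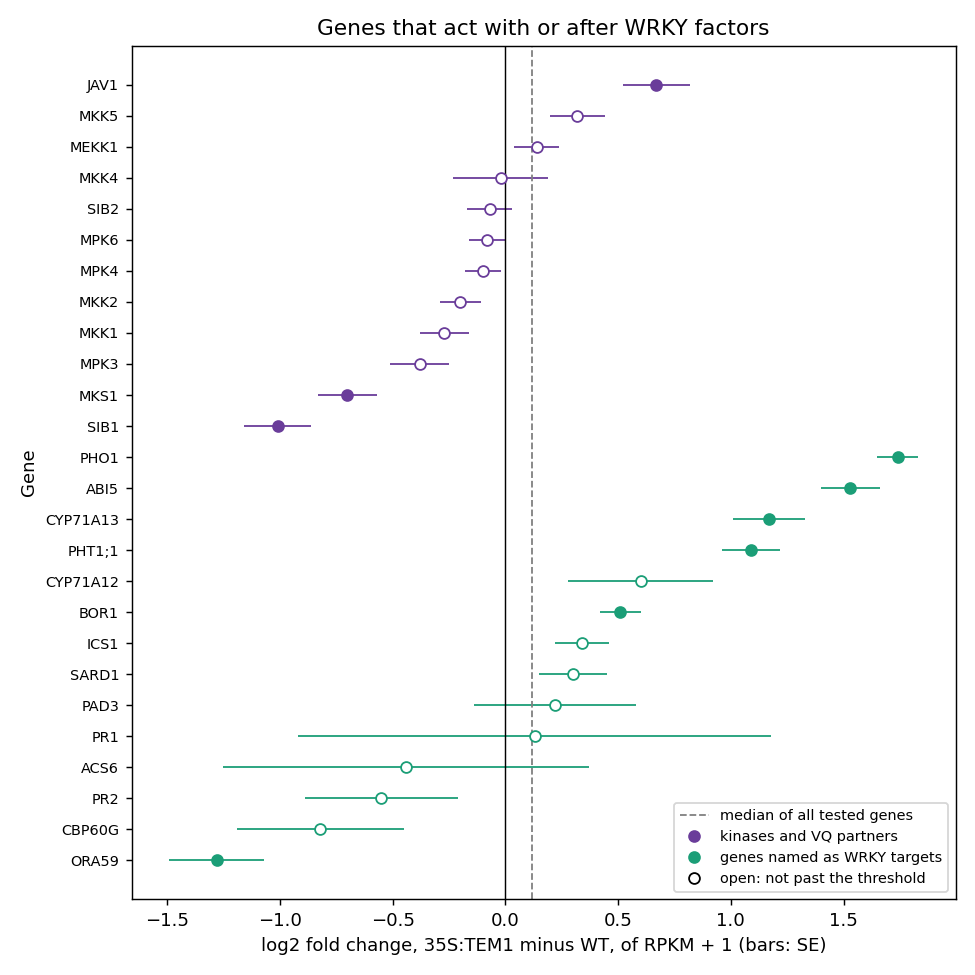
Log2 fold change (35S:TEM1 minus WT, of RPKM + 1) with standard errors of the 12 kinase and VQ protein genes and the 14 tested target genes, filled where the adjusted p was under 0.05. Values ran from -1.01 (SIB1) to 0.67 (JAV1) in the upper list and from -1.28 (ORA59) to 1.74 (PHO1) in the lower one.

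The 250 bases before the annotated start of each gene were searched on both strands of the TAIR10.1 genome for the W-box (TTGACC or TTGACT), its core TTGAC, which every W-box holds, and both binding elements known for the TEM1 relative RAV1, CAACA and CACCTG. A W-box was present in 18 of the 50 members (36.0%) and in 28.5% of 26711 protein-coding genes, and the core in 26 members (52.0%) and 45.0% of those genes. CAACA was present in 23 members (46.0%) and 47.3% of genes, and CACCTG in 4 members (8.0%) and 2.5% of genes. The 4 members with CACCTG were WRKY2 and WRKY13, which rose, and WRKY31 and WRKY55, which lay under the limit. These matches are descriptions of letters and were not tested. Upstream stretches are shown for WRKY13, the more strongly changed of the risers with CACCTG, and for WRKY70, the larger fall, which held a core and no W-box. They read 5′ to 3′ on the gene's strand and end at the base before the start, with CACCTG or the core (GTCAA where it lies on the other strand) in capitals.
WRKY13 (chr4:18334894-18335143, - strand): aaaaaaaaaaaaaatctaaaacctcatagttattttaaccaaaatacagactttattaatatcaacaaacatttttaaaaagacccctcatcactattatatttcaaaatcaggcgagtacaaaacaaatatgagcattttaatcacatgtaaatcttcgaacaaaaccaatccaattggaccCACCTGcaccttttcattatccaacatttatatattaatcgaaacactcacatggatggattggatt
WRKY70 (chr3:20910624-20910873, - strand): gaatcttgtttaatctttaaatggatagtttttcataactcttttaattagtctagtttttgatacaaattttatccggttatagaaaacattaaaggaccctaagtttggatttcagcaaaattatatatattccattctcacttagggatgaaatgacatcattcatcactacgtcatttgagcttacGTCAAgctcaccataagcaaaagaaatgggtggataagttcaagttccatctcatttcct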

How the data were processed

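The authors deposited 1 RPKM value per locus and sample. Tools listed in the submitters' processing notes are STAR, Cuffdiff 2.2.1, bcl2fastq 1.8.4 and FastQC, and the build listed is TAIR10; the notes as used here tie no tool to a step. The sources used here state no counter, annotation, strand setting or read filter. The WRKY genes and the other lists were chosen with earlier results of these data known. Groups came from the sample titles. Genes with a mean RPKM of at least 1 over the 4 samples were fitted with limma 3.58.1 in R 4.3.3 as log2(RPKM + 1), with a mean-variance trend, 2-sided, with Benjamini-Hochberg adjustment (2 residual and 4.17 prior degrees of freedom). The scale understates changes of low genes. The script was checked on simulated data. Errors are SE from limma. Values in every sample are given for each member that passed, had an absolute log2 fold change of at least 0.5 or was among the 5 most abundant, and for others picked after their values were seen. Scaling totals estimated from the lowest values were 20.18 M and 27.81 M reads for 35S:TEM1 and 30.43 M and 24.14 M for WT (M, units of 1e+06). Of values under 50 reads 31.2% to 33.5% came out whole within 0.05 of a read, so read numbers are estimates and depth limits the lowest members. Summed over the loci with an exon length, the estimated reads came to 1.17 times the scaling total in each sample, so they do not match it. Sequences and coordinates are RefSeq's, of TAIR10.1. The deposited table holds no coordinates. Exons of WRKY29, WRKY53, WRKY69 and WRKY41 overlap a gene on the opposite strand over 18.0% to 41.7% of their length, so their levels are uncertain. The same holds for CYP71A13 (22.1%) and, by separate genes, for MPK4 (22.3% and 3.5%) and MKS1 (16.2% and 13.0%). Such overlaps also cover other listed genes, among them SIB2 (100.0%), ESB1 (84.3%), TCH2 (20.9%) and SARD1 (18.4%). BLAST 2.17.0 found no match of 100 bases or more between WRKY exons and another locus above 94.9% identity.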

Additional observations from a re-analysis of the deposited data

How the results depend on the processing

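Alternatives were fixed with earlier results known, and 2 (voom on estimated reads, and no filter without the loci at 0 in every sample) were chosen after seeing the data. Higher WRKY members numbered 9 to 13 and lower ones 0 to 5 in the 4 fits without 1 sample, where a lone sample is assumed to vary like the other genotype. Their median log2 fold change stayed between 0.15 and 0.44 in every setting run. With no filter 1 member (WRKY30) was higher and 0 were lower, 0 kinase and VQ partner genes were higher and 0 lower, and 2 target genes were higher and 0 lower, and 346 of all loci were called. Lower members numbered 1 with a mean RPKM of at least 5, without a trend, with robust variance and with no filter but without the loci at 0. With a mean RPKM of at least 5, where fewer genes were tested, 0 kinase and VQ partner genes were higher and 0 lower, and 2 target genes were higher and 0 lower. Kinase and VQ partner genes numbered 0 higher with quantile normalization and 5 lower with equal sample medians, and without 1 sample 0 to 1 higher and 1 to 3 lower. Target genes without 1 sample numbered 4 to 6 higher and 1 to 3 lower. WRKY18 turned to 0.05, WRKY33 to 0.06 and WRKY40 to 0.54 without WT replicate 2, and WRKY40 to 0.07 without 35S:TEM1 replicate 1. Without WT replicate 1 they were -1.23, -1.38 and -1.57 for WRKY18, WRKY33 and WRKY40. WRKY20 turned to 0 after rounding with equal sample medians. Where no cause is given, the cause was not tested. The genotypes share replicate numbers, which no label ties to a batch. Replicate 2 minus replicate 1 correlated between genotypes with r = 0.32 across all tested genes and 0.84 across the 36 tested members, which share the same 4 libraries. With the replicate block, WRKY15 and WRKY48 were also higher and WRKY18 and WRKY33 also lower (16 higher, 4 lower, beside 4321 and 1801 of all tested genes), 2 kinase and VQ partner genes were higher and 2 target genes lower, and all 25 named calls were kept. Voom kept all 25, equal sample medians 22 and quantile normalization 21.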
